A study of Mus musculus with 2 samples.

Results

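The Sprouty genes Spry1, Spry2 and Spry4, their relatives Spred1 and Spred2, the phosphatase gene Dusp6 and the ETS factor genes Etv1, Etv4 and Etv5 were described as a group of FGF and ERK feedback genes. They were chosen by name, and all 9 were found among the 31053 genes of the count matrix. The cells were taken from incisors of C57BL/6 mice at 4 weeks of age that had received no treatment. Dissection left the pulp and the dental epithelium joined, as the labels describe it, and collagenase released the cells for capture in droplets. The labels name the tissue as dental mesenchyme, but 769 of the 4536 cells kept carried epithelial markers such as Epcam, Cdh1 and Krt14, beside 2203 cells with mesenchymal collagens. The 2 sample titles differed only in the sequencing lane and the counts formed 1 matrix, so the cells were treated as 1 sample, the number of animals is unknown, and no difference described here has a replicate check. All intervals are exact 95% intervals and cover counting error only.

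Fibroblast growth factors bind receptor tyrosine kinases and switch on the RAS-ERK cascade, and ERK in turn raises the transcription of genes that dampen it. Sprouty and Spred proteins act on the cascade between receptor and RAF, the DUSP6 phosphatase removes the activating phosphates of ERK in the cytoplasm, and ETV1, ETV4 and ETV5 are transcription factors of the PEA3 group induced by FGF signals. Because their transcripts follow ERK activity in many tissues, these genes are widely read as its output. In the mouse incisor, which grows throughout life, FGF3, FGF9 and FGF10 signal between the mesenchyme and the epithelium of the cervical loop, where the epithelial progenitors lie, and Sprouty genes restrain this loop.

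The epithelium fell into 5 clusters and the mesenchyme into 9, and the 9 genes were left out of the clustering. Each cluster is called here by its leading gene. In the epithelium, the Grp cluster (191 cells) had the progenitor markers Sfrp5, Grp, Igfbp2 and Pcp4 together with cell division genes. The Vwde cluster (48 cells) was preameloblast-like, although the haemoglobin gene Hba-a1 was among its leading genes, and the Enpp2 cluster (90 cells) was like non-ameloblast epithelium, with Notch2 and Cygb among its leading genes. The Dspp cluster (153 cells) had no name by the markers used, though the ameloblast markers Amelx, Ambn, Enam and Mmp20 were raised in it. Its leading genes included Tgfb3 and Fxyd4. The Ambn cluster (287 cells) was ameloblast-like. In the mesenchyme, the Dmp1 cluster (153 cells) was odontoblast-like, the Lypd1 cluster (348 cells) apical mesenchyme-like and the Igf1 cluster (384 cells) dental follicle-like with Ogn and Acta2. The Tpx2 cluster (359 cells) was led by cell division genes. The Fmod (357 cells) and Tac1 (191 cells) clusters of the mesenchyme met no marker list. The Lgals3 (256 cells), Slc20a2 (133 cells) and Dspp (22 cells) clusters met the osteoblast list, with Bglap and Bglap2 raised in all 3, but that list shares Bglap and Ibsp with the odontoblast list, and they are called by their leading gene only. Amelx, the ameloblast gene, was among the leading genes of the Lgals3 cluster, at 0.148% of its UMIs. Median depth ranged from 3778 UMIs (unique molecular identifiers) per cell in the Vwde cluster to 11647 in the Ambn cluster.

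Levels are given as CPM, the gene's UMIs divided by all UMIs of the cluster and scaled to 1000000. Droplets with 1 to 20 UMIs, taken as a measure of free RNA, held 25.3 CPM of Dusp6, 21.9 of Spry2, 18.7 of Spry1, 18.7 of Spred1, 17.7 of Etv5, 13.2 of Etv4, 11.5 of Etv1, 7.29 of Spred2 and 4.16 of Spry4. A cluster at or under these levels is not read as expressing the gene, nor as lacking it. The droplets hold free RNA alone, and how much of it a cell carries was not measured. The B cell-like class, set beside them as a cell type from outside the tooth, had 0 CPM of Etv1, 2.22 of Etv4 and 4.43 of Etv5. Each was under its droplet level.

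Of the 9 genes 8 had their highest epithelial level in the Grp cluster, and Spred1 was highest in the Enpp2 cluster. Etv1 reached 134 CPM (336 UMIs, up to 39 of them in a single cell) in the Grp cluster, 31.8 in the Vwde cluster, 10.8 in the Ambn cluster, 8.36 in the Enpp2 cluster and 7.66 in the Dspp cluster. Dusp6 followed the same order for its leading clusters, with 109 CPM in Grp, 38.8 in Vwde, 11.9 in Enpp2, 1.92 in Ambn and 1.70 in Dspp cells. The intervals of the Grp cluster, 120 to 149 CPM for Etv1 and 96.7 to 123 CPM for Dusp6, did not overlap those of any other epithelial cluster. In the Ambn and Dspp clusters, the levels of all 9 genes lay under those of the low-UMI droplets. For Etv1 in the Ambn cluster the level was within the droplet interval, at 10.8 against 11.5 CPM (7.88 to 16.1). These levels count all UMIs, of which Amelx made up 33.2% in the Ambn cluster.

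**Figure D1:**
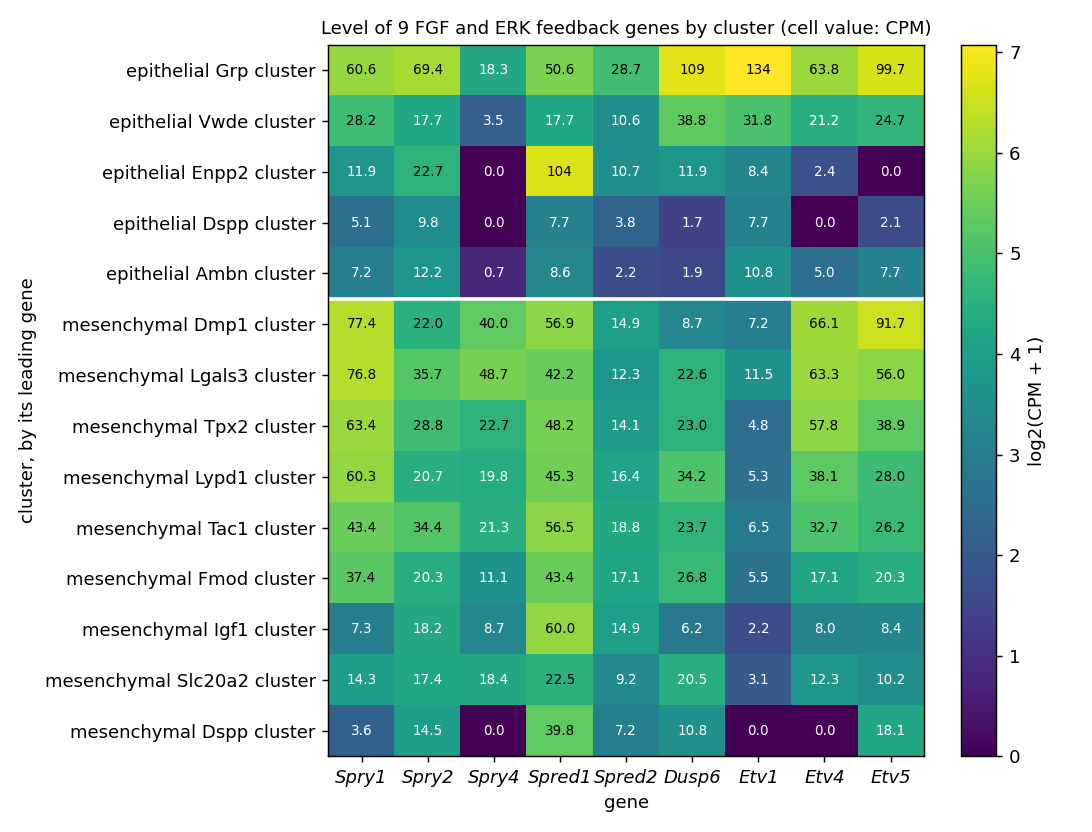
CPM of the 9 genes (columns) in the 5 epithelial and 9 mesenchymal clusters (rows), with colour on a log2(CPM + 1) scale and the white line between the layers. The Grp cluster leads the epithelium for all genes but Spred1, and the ameloblast-like Ambn cluster is low throughout.

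Set against all other epithelial cells, the Grp cluster was at least 2-fold higher for 9 of 9 genes, and each interval lay past 2-fold, beside 29.9% of all genes higher and 8.93% lower in that cluster. Over all pairs of a gene and an epithelial cluster, 14% were at least 2-fold higher in the cluster and 17.2% at least 2-fold lower. Over the 9 genes and 5 clusters, 10 of 45 pairs were higher and 22 lower. The 22 lower pairs lay in the Ambn cluster (9 genes), the Dspp cluster (9 genes) and the Enpp2 cluster (Dusp6, Etv1, Etv4 and Etv5), and the tenth higher pair was Spred1 in the Enpp2 cluster. The cells that these clusters were set against included the Grp cells, which held 46.5% to 92.0% of each gene's epithelial UMIs. The lower pairs therefore do not rank the clusters outside Grp. Etv4 was at 5.04 CPM in Ambn, 2.39 in Enpp2 and 0 in Dspp cells, and Etv5 at 7.68, 0 and 2.13. Dusp6 went the other way between Ambn (1.92) and Enpp2 cells (11.9). Of all genes 41% were lower in the Ambn cluster, 16.6% in the Dspp cluster and 8.58% in the Enpp2 cluster, where 18% were higher. In the Vwde cluster, with 48 cells and 1 to 11 UMIs of each of the 9 genes, 1355 of all 10565 genes were higher and 1134 lower. None of the 9 genes was 2-fold away from the rest there, except Etv1 when each cell was weighted equally (-1.44). On that scale or with the all-gene median subtracted, Spry1 was also 2-fold lower in the Enpp2 cluster.

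Among the ETS factors, the Grp cluster had 63.8 CPM of Etv4 against 3.80 in the other epithelial cells, a log2 ratio of 4.07 (3.49 to 4.69). Etv5 stood at 99.7 against 5.76 CPM, a log2 ratio of 4.11 (3.65 to 4.61), and Etv1 at 134 against 10.3 CPM, a log2 ratio of 3.69 (3.34 to 4.07). The 3 PEA3 group genes thus shared a ratio of similar size, with overlapping intervals. For Dusp6, the ERK phosphatase gene, the log2 ratio was 4.66 (4.14 to 5.23).

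The inhibitors that act between receptor and RAF spread more widely. Spry4 was at 18.3 CPM in the Grp cluster and at 0.52 CPM (4 UMIs) in the other epithelial cells, a log2 ratio of 5.13 (3.68 to 7.07). Spry1 had a log2 ratio of 2.95 (2.51 to 3.40), Spred2 of 2.87 (2.24 to 3.54) and Spry2 of 2.43 (2.07 to 2.81). Spred1 had the smallest ratio, 1.41 (1.05 to 1.76). Of its 146 UMIs outside the Grp cluster, 87 lay in the 90 cells of the Enpp2 cluster (104 CPM), where its log2 ratio to the other epithelial cells was 2.38 (1.99 to 2.75). In those same cells Etv5 and Spry4 had no UMI.

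The Amelx transcript alone made up 33.2% of the UMIs of the Ambn cluster and 9.72% of those of the Dspp cluster, which lowers the CPM of every other gene there. The median log2 ratio of all genes was 0.55 in the Grp cluster and -0.82 in the Ambn cluster. With genes above 1% of UMIs left out of the totals, or with the all-gene median subtracted, 8 of 9 genes stayed at least 2-fold higher in the Grp cluster, Spred1 being the exception at 0.97 with reduced totals. On either scale 8 of 9 were lower in the Ambn cluster, where Spry2 was at -0.88 with reduced totals. The Grp cluster held 24.8% of the epithelial cells and 24.7% of their UMIs. It held 92.0% of the Spry4 UMIs (80.8% to 97.8%), 89.3% of those of Dusp6, 85.0% of Etv5, 84.7% of Etv4 and 81.0% of Etv1, but 46.5% of Spred1.

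**Figure D2:**
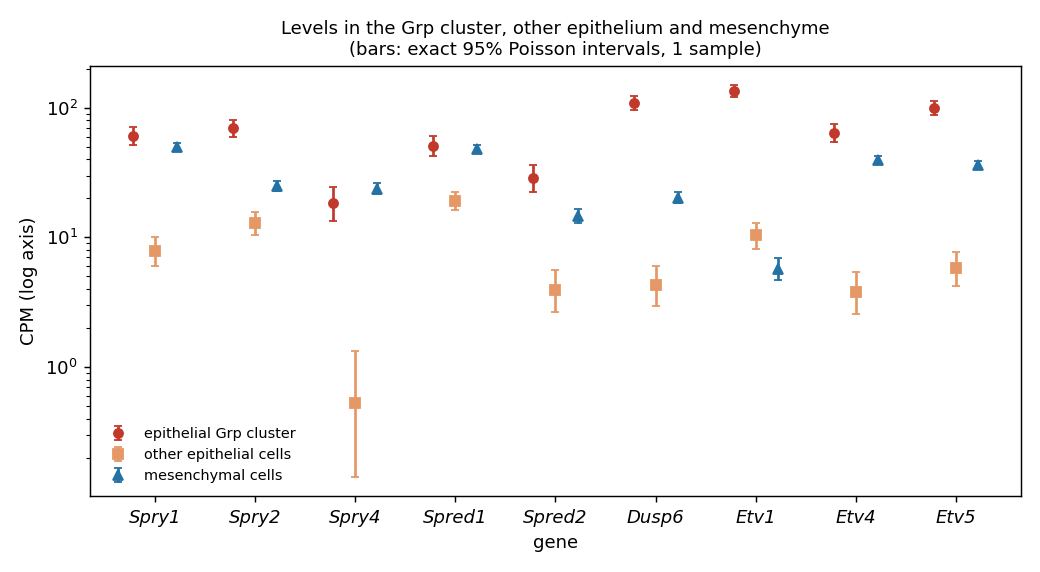
CPM (log axis) of each gene in the epithelial Grp cluster, in the other epithelial cells and in all mesenchymal cells, with exact 95% Poisson intervals. For 8 of the 9 genes the other epithelial cells lie below the mesenchyme, and Etv1 is the exception.

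The promoters of these genes are shown because the genes were high in the same epithelial cluster. The windows are RefSeq promoters of build GRCm38.p6, from 250 bases before to 50 bases after a transcript start. Those of 7 of the 9 genes were searched, with 9 windows in all. Etv4 had no entry and Spry4 was left out of the search, so the motif counts cover neither gene. Capitals mark the ETS core motifs CGGAAG and AGGAAG on either strand, read as CTTCCG and CTTCCT on the other strand. The windows of Dusp6 (chr10:99262981-99263280, plus strand), Spred1 (chr2:117120821-117121120, plus strand), Spred2 (chr11:19924192-19924491, plus strand), the first of Etv1 (chr12:38779832-38780131, plus strand) and the second of Etv5 (chr16:22438319-22438618, minus strand) held a match, and that of Spry1 (chr3:37639697-37639996, plus strand) did not.
Dusp6: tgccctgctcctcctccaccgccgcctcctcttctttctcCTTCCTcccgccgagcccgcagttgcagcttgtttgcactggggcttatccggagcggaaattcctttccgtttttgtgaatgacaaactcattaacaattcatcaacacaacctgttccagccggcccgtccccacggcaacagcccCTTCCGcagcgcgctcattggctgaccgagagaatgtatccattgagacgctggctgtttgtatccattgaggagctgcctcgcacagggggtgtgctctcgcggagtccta
Spred1: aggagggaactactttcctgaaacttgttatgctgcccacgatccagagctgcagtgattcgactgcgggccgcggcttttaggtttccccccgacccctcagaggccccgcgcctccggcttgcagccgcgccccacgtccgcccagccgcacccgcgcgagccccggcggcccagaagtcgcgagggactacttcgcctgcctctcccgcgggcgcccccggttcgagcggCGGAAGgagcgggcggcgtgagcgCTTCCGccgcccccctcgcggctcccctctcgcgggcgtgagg
Spred2: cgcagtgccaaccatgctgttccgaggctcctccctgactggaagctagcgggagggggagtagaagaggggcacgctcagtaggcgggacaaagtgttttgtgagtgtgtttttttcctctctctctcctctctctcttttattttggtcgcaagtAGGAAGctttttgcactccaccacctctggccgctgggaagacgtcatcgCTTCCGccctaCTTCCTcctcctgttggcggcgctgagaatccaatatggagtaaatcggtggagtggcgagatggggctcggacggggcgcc
Etv1: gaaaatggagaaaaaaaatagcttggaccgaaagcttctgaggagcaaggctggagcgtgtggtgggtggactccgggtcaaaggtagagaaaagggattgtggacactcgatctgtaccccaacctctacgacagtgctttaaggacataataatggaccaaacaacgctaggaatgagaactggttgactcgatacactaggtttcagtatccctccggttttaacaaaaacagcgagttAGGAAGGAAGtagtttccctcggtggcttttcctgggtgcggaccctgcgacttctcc
Etv5: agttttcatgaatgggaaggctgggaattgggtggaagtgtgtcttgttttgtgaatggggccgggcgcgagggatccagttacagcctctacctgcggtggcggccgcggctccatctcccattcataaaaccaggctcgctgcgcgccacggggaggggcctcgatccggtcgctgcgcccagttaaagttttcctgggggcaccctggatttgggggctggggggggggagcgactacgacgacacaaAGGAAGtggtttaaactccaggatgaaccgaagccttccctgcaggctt
Spry1: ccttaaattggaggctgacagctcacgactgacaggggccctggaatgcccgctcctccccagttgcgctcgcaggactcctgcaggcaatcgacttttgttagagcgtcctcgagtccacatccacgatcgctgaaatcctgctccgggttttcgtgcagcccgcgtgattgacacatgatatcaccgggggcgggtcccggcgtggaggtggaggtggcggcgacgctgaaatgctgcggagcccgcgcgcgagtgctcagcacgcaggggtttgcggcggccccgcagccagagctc

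CGGAAG was present in 3 of the 9 windows and in 16.85% of all 32851 promoter windows of the table. AGGAAG was present in 4 of the 9 windows and in 35.35% of all windows. In the Etv1 window its 2 matches overlap. The other window of Etv1, that of Spry2 and the first of Etv5 had no match to either. The AP-1 motif TGANTCA, the CRE motif TGACGTCA and the CArG box were searched on both strands as well, and none of the 9 windows held one, beside 7.81%, 1.79% and 1.63% of all windows. The CCAAT box was present in 5 of the 9 windows, those of Spry1, Dusp6 and Spred2 and both of Etv5, and in 37.41% of all windows. A match describes the letters of a window and not the binding of a factor, and the data hold no binding measurement. All 9 genes were higher in the Grp cluster, so a relation between matches and level was not tested.

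At a finer clustering, examined after the cluster values were seen, the cells of the Grp cluster separated into a Sfrp5-rich cluster and a dividing cluster. The first had 67 cells with 479 CPM of Sfrp5, 55.8 of Mki67 and 10.7 of Shh. The second, led by Cenpa and Pclaf, had 126 cells, 122 of them from the Grp cluster, with 26.6 CPM of Sfrp5, 243 of Mki67 and 601 of Shh. Of the 9 genes 6 were higher in the Sfrp5-rich cells by intervals that left out no difference, and Etv4 was lower. Dusp6 was at 171 CPM in the Sfrp5-rich and 78.1 CPM in the dividing cells, a log2 ratio of 1.13 (0.78 to 1.48). Etv1 stood at 214 and 94.4 CPM, a log2 ratio of 1.18 (0.86 to 1.50). Spred2 (1.54, 0.83 to 2.27) and Spred1 (1.48, 0.95 to 2.02) had log2 ratios past 2-fold too, so 4 of 9 genes were called higher, beside 10.1% of 7854 genes. Spry2 (0.99, 0.54 to 1.44) and Etv5 (0.76, 0.39 to 1.13) were also higher in the Sfrp5-rich cells, but within 2-fold. Etv4 ran the other way, with 43.9 CPM in the Sfrp5-rich and 75.0 CPM in the dividing cells, a log2 ratio of -0.77 (-1.34 to -0.23). For Spry1 (0.15, -0.35 to 0.64) and Spry4 (-0.37, -1.42 to 0.59) the intervals held no difference.

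A split of the Grp cluster by Mki67 or Top2a UMIs, also chosen after the data were seen, gave the same order for Dusp6 and Etv1 but not for Spred2. The 107 cells with such a UMI had 89.7 CPM of Dusp6 (77.1 to 104) and 116 of Etv1 (101 to 132). The 84 cells without one had 192 CPM of Dusp6 (155 to 236) and 211 of Etv1 (172 to 257). Spred2 was at 29.1 CPM with and 27.2 CPM without such a UMI, and the intervals of the 7 genes other than Dusp6 and Etv1 overlapped. The cells with a UMI were deeper, with a median of 11001 against 4844.5 UMIs, and a shallow cell is more likely to lack a UMI of any gene.

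**Figure D3:**
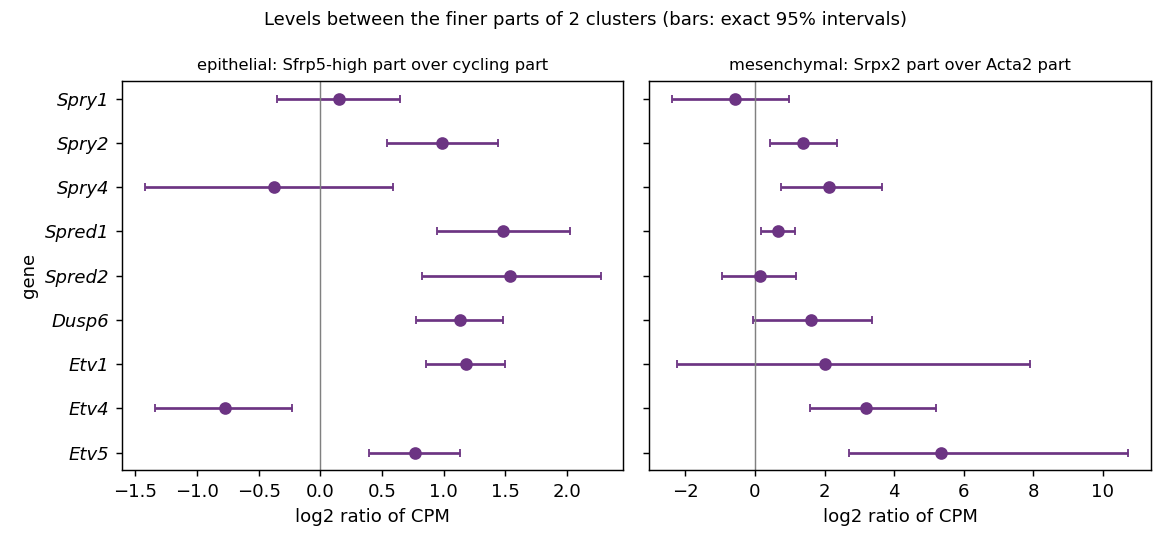
Log2 ratio of CPM for each gene between the finer parts of the Grp cluster (left) and of the Igf1 cluster (right), with exact 95% intervals and a line at no difference. On the left Dusp6, Etv1, Spred1, Spred2, Spry2 and Etv5 lie to the right of the line and Etv4 to its left, and on the right Etv4 and Etv5 lie furthest to the right.

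In the mesenchyme, Spry1, Spry4, Etv4 and Etv5 had similar orders over the clusters, whereas Spred1, Spred2 and Spry2 stayed within 2-fold of the other mesenchymal cells in all clusters but Slc20a2 (Spred1) and Dspp (Spred2, 2 UMIs). Spry1 was at 77.4 CPM in the Dmp1 cluster, 76.8 in Lgals3, 63.4 in Tpx2, 60.3 in Lypd1, 43.4 in Tac1, 37.4 in Fmod, 14.3 in Slc20a2, 7.28 in Igf1 and 3.62 in Dspp cells. Etv4 had nearly the same order, from 66.1 CPM in Dmp1 and 63.3 in Lgals3 through 57.8 in Tpx2, 38.1 in Lypd1, 32.7 in Tac1 and 17.1 in Fmod to 12.3 in Slc20a2, 8.00 in Igf1 and 0 in Dspp cells. Etv5 was highest in the Dmp1 cluster, with 91.7 CPM (78.8 to 106), above the 56.0 CPM of the Lgals3 cluster, whose interval it did not overlap. Spry4 was highest in the Lgals3 and Dmp1 clusters, at 48.7 and 40.0 CPM with overlapping intervals. The Dmp1 and Lgals3 clusters had the highest levels of these 4 genes. For Spry1 and Etv4 the Tpx2 cluster came next, with intervals that overlapped theirs. With each cell weighted equally, the Etv4 log2 ratio to other mesenchymal cells was 1.11 in Dmp1, 1.07 in Tpx2 and 0.82 in Lgals3 cells. The follicle-like Igf1 cluster lay below the low-UMI droplets for Spry1, Etv4 and Etv5.

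**Figure D4:**
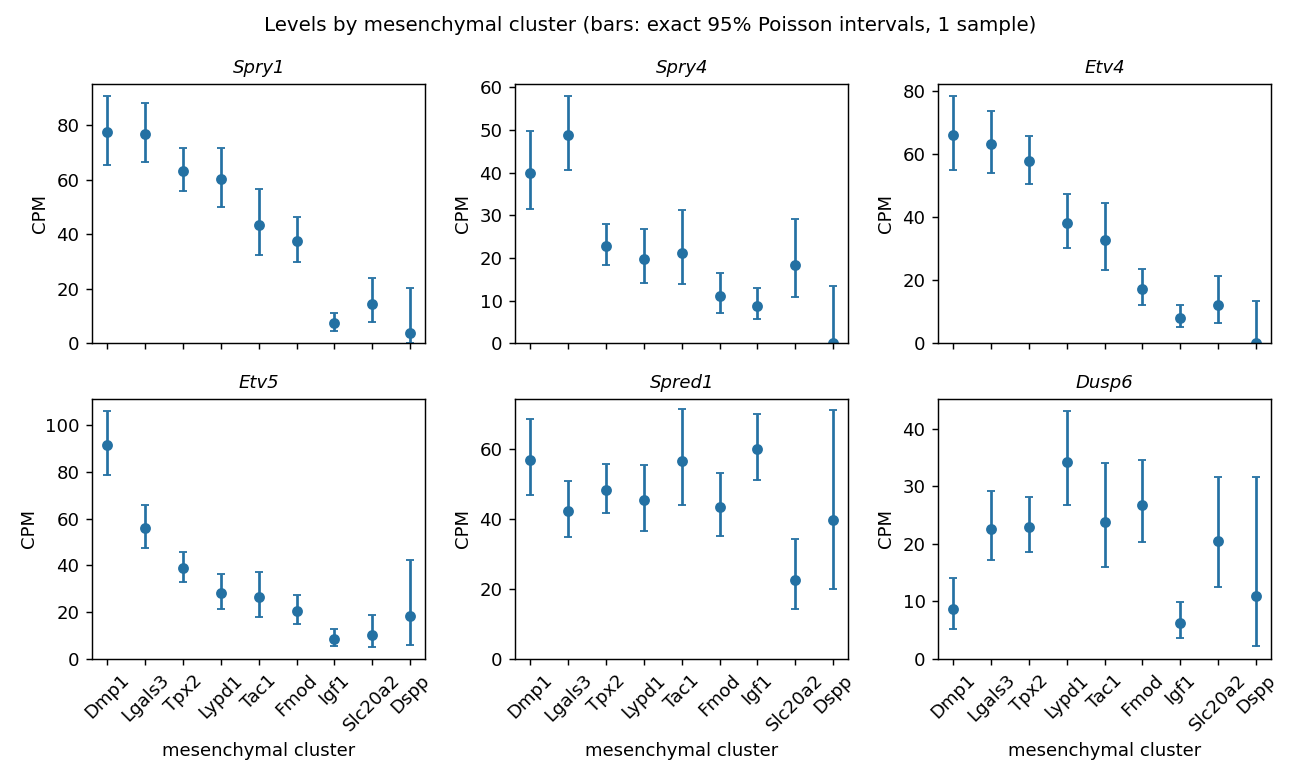
CPM of 6 of the genes in the 9 mesenchymal clusters, each axis starting at 0, with exact 95% Poisson intervals. Spry1, Spry4, Etv4 and Etv5 are highest in the Dmp1 and Lgals3 clusters on the left and lower in the Igf1 cluster, Spred1 stays between 22.5 and 60.0 CPM, and Dusp6 is low in the Dmp1 cluster.

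Counted at 2-fold against the other mesenchymal cells, 3 of 81 pairs of gene and cluster were higher and 18 lower. Over all genes 7.08% of such pairs were higher and 14.1% lower. Of the 7680 higher pairs over all genes, 2438 lay in the Dspp cluster of 22 cells. There the floor of 3 counts can put a gene without a UMI past 2-fold higher, and it gave Etv1, with 0 UMIs, a log2 ratio of 0.90. The share of higher pairs among the 9 genes is therefore not ranked against that of all genes. By cluster, 7.75% of all genes were higher in Dmp1 and 2.02% in Lgals3 cells. The higher pairs were Etv5 in the Dmp1 cluster, with a log2 ratio of 1.64 (1.38 to 1.89), and Spry4 (1.32, 1.01 to 1.62) and Etv1 (1.28, 0.61 to 1.91) in the Lgals3 cluster. Etv1 was at the droplet level in that cluster, at 11.5 CPM, and it came within 2-fold with each cell weighted equally (0.81). On that scale, or with the all-gene median of the cluster (-0.22) subtracted, Spry4 and Etv4 also passed 2-fold in the Dmp1 cluster, from log2 ratios of 0.87 and 0.86. The Igf1 cluster had 6 of the lower pairs, with log2 ratios of -2.98 (-3.70 to -2.35) for Spry1, -2.50 for Etv4, -2.30 for Etv5, -1.89 for Dusp6, -1.60 for Spry4 and -1.54 for Etv1, beside 9.78% of all genes lower. Dusp6, at 6.18 against 22.8 CPM, and Etv1 were under their droplet levels on both sides. Etv1 came within 2-fold with each cell weighted equally (-0.78).

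Of the other lower pairs, 4 lay in the Slc20a2 cluster, namely Etv5 (-1.88), Spry1 (-1.85), Etv4 (-1.75) and Spred1 (-1.14, -1.82 to -0.53), and 2 in the Fmod cluster, Etv4 (-1.32) and Spry4 (-1.21). In these clusters 12.8% and 10.7% of all genes were lower. A further 5 lay in the Dspp cluster, whose 22 cells held 0 to 11 UMIs of each gene, beside 18.4% of all genes. Only the intervals of Spry1 and Etv4 lay past 2-fold there, and the count was 2 with reduced totals and 3 with the all-gene median subtracted. With each cell weighted equally it was 2, but Spry4 and Etv4, which had 0 UMIs in that cluster, were not scored on that scale. The Dmp1 cluster had 1 lower pair, beside 21.4% of all genes. It was Dusp6, the phosphatase gene, with 8.71 CPM in the Dmp1 cluster against 21.7 CPM in the other mesenchymal cells, a log2 ratio of -1.32 (-2.11 to -0.62), and both levels were under the 25.3 CPM of the low-UMI droplets.

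The Dmp1 and Igf1 clusters, compared after their values were seen, differed most for Etv5 (3.45, 2.82 to 4.15), Spry1 (3.41, 2.73 to 4.16), Etv4 (3.05, 2.39 to 3.77) and Spry4 (2.20, 1.52 to 2.92), all higher in the Dmp1 cluster on the log2 scale. Spred1, an inhibitor of RAS signalling, was at 56.9 CPM in the Dmp1 and 60.0 CPM in the Igf1 cluster, a log2 ratio of -0.08 (-0.44 to 0.28). Spry2 had a log2 ratio of 0.28 (-0.35 to 0.89). Of 8 genes measured 4 were higher and 0 lower, beside 10.4% of all genes higher and 24% lower.

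Within the Igf1 cluster the finer clustering separated 240 cells led by Acta2 and Ogn from 96 cells led by Srpx2 and Pthlh and 45 led by Igfbp3 and Smoc2. Of 3 genes that reached 30 UMIs over the Srpx2 and Acta2 cells, Spry2 was past 2-fold higher in the Srpx2 cells, with 27.2 against 10.5 CPM (1.37, 0.42 to 2.35), beside 6.99% of all genes. Etv4, Etv5 and Spry4 had 21 or 22 UMIs, under that minimum, and are given as values. The Acta2 cells had 2.33 CPM of Etv4 (4 UMIs) and 0.58 of Etv5 (1 UMI). The Srpx2 cells had 21.3 CPM of Etv4 (18 UMIs) and 23.7 of Etv5 (20 UMIs), which gave log2 ratios of 3.19 (1.59 to 5.21) and 5.34 (2.70 to 10.7). Spry4 was at 17.8 against 4.08 CPM (2.12, 0.74 to 3.66), and Spry1 was at 5.92 and 8.75 CPM with an interval that spanned no difference (-2.38 to 0.97). Mki67 was at 175 CPM in the Srpx2 cells and 5.25 CPM in the Acta2 cells, and its part in these ratios was not tested. The Igfbp3 cells had 50.8 CPM of Spry2 (9 UMIs), 11.3 of Etv5 (2 UMIs) and no UMI of Etv4 or Spry1.

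Across the whole layers, Etv1 stood apart. The epithelium had 40.9 CPM of Etv1 (415 UMIs) and the mesenchyme 5.73 CPM (103 UMIs), a log2 ratio of 2.84 (2.52 to 3.16). The mesenchymal level was under that of the low-UMI droplets, as it was for Dusp6, at 20.3 CPM. Spry4 was lower in the epithelium, at 4.93 against 23.8 CPM, a log2 ratio of -2.27 (-2.72 to -1.85). Spry1 (-1.25, -1.48 to -1.04) and Etv4 (-1.09, -1.33 to -0.86) were lower past 2-fold as well. Spred1 (-0.84), Spred2 (-0.54), Etv5 (-0.32), Spry2 (0.10) and Dusp6 (0.58) lay within 2-fold.

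Thus 1 of 9 genes was at least 2-fold higher and 3 were at least 2-fold lower in the epithelium, beside 10.5% and 20% of 12920 genes. The median of all genes was -0.29, and it was 0.01 once genes above 1% of the UMIs of a layer were left out of the totals, chiefly Amelx with 15.9% of epithelial UMIs. On that scale Etv1 was still higher and Spry4 still lower, at -1.97, while Spry1 and Etv4 came within 2-fold. Without cells that had Mki67 or Top2a UMIs, 6 of 9 genes were lower, Spry4 was at -4.03 and Dusp6 changed from 0.58 to -0.23. The cells left out were 107 of the 191 cells of the Grp cluster but 5 of the 287 of the Ambn cluster. The share of all genes was not counted for that setting.

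The layer values average over unlike epithelial clusters. The Grp cluster alone, set against the mesenchyme after the cluster values were seen, was at least 2-fold higher for Etv1 (4.55, 4.23 to 4.88), Dusp6 (2.43, 2.20 to 2.66), Spry2 (1.47, 1.21 to 1.73) and Etv5 (1.46, 1.24 to 1.67) and at least 2-fold lower for none, beside 11.5% and 13.7% of all genes. Spry1 (0.28), Spred1 (0.07) and Spry4 (-0.38) were close to the mesenchymal level there. The epithelium without the Grp cluster was higher for 0 and lower for 7 of the 9 genes, beside 10.2% and 32.1% of all genes. In that comparison Etv1 was at 10.3 against 5.73 CPM, both under the droplet level.

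Cells were thinned to 2000 UMIs each to count how many of the 9 genes had a UMI in the same cell. In the Grp cluster the mean was 1.12 genes per cell, 34.3% of 169 cells had none, and 10.7% had 3 or more (18 cells). In the Dmp1 cluster the mean was 0.76 genes and 4.08% had 3 or more, and in the Igf1 cluster the mean was 0.29. In the Ambn cluster 90.6% of 278 cells had none. The B cell-like class had a mean of 0.21, with 83.8% of 68 cells at none, and its median depth of 1694 UMIs left out most of its cells. For Etv1 the thinned share of cells with a UMI was 21.9% (15.9% to 28.9%) in the Grp cluster and 1.08% in the Ambn cluster, and without thinning it was 51.8% and 12.9%, at median depths of 7704 and 11647 UMIs. In the B cell-like class 0 of 68 thinned cells had an Etv1 UMI, with an upper bound of 5.28%.

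**Figure D5:**
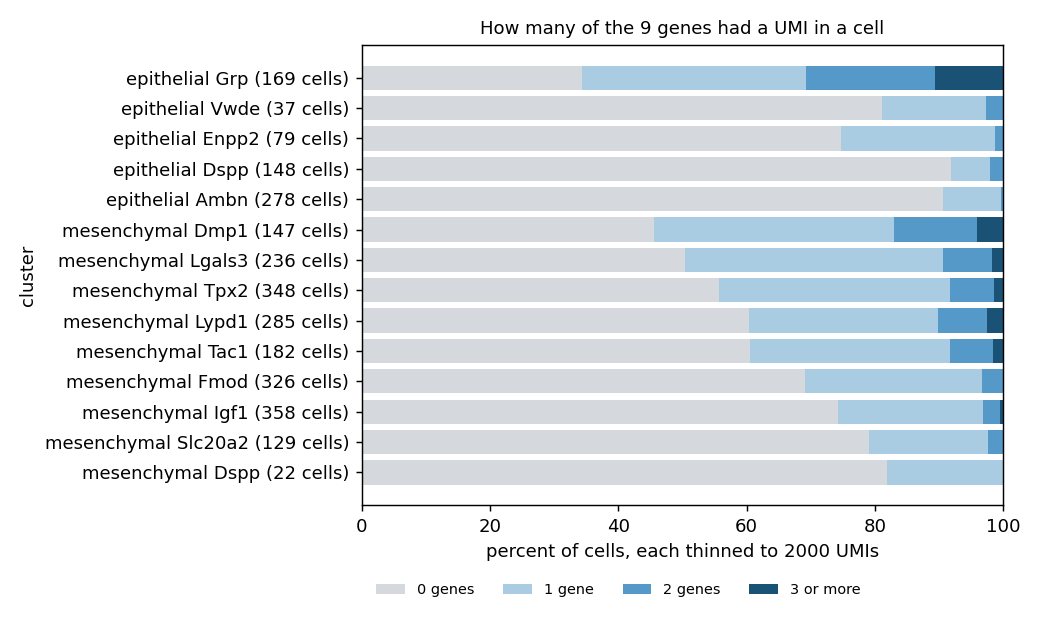
Percent of cells in each cluster with a UMI of 0, 1, 2 or 3 and more of the 9 genes, after thinning each cell to 2000 UMIs, with the number of cells deep enough in brackets. Of these clusters the Grp cluster has the lowest share of cells with none (34.3%), followed by the Dmp1 cluster, and the Ambn and Dspp clusters of the epithelium have over 90% with none.

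The ligands and receptors were distributed between the layers. Fgf3 was at 77.5 to 84.8 CPM in the Lgals3, Lypd1 and Tpx2 clusters of the mesenchyme and at 0.79 CPM in the epithelium. Fgf10, which signals to epithelial FGFR2, was at 56.0 CPM in the Lgals3 and 48.2 CPM in the Dmp1 cluster. Fgf9 was at 38.7 CPM in the Grp cluster against 0.44 CPM in the mesenchyme, a log2 ratio of 6.44 (5.41 to 7.69). In the Igf1 cluster, where Spry1, Etv4 and Etv5 were low, Fgf3 was at 2.18 and Fgf10 at 4.37 CPM, and Fgfr2 at 198 CPM was at its highest of the 14 clusters. Of 6 ligand genes measured there 4 were lower and 2 higher, beside 1179 and 1825 of 12059 genes. The Dmp1 cluster, the highest of the mesenchyme for Etv5, had 14.9 CPM of Fgf3 and 1.54 CPM of Fgfr2. Of 6 ligand genes measured in the Dmp1 cluster 4 were lower and 1 higher, beside 21.4% and 7.75% of all genes. The receptor gene Fgfr1 was at 301 CPM in the Grp, 234 in the Dmp1 and 190 in the Igf1 cluster. Of 8 FGF ligand genes measured between the layers 2 were higher and 6 lower in the epithelium, beside 10.5% and 20% of all genes. Of 4 receptor genes 0 were higher and 1, Fgfr3, was lower, which is near those shares.

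In the Grp cluster 10 of 14 other ERK output genes measured were at least 2-fold higher than in the other epithelial cells and 0 lower, beside 29.9% and 8.93% of all genes, with a median log2 ratio of 1.15 beside 3.69 for the 9 feedback genes and 0.55 for all genes. Ccnd1, the cyclin that ERK raises in G1, was at 339 against 20.6 CPM (4.04, 3.80 to 4.30), and Phlda1 at 178 against 40.3 CPM (2.14, 1.93 to 2.36). Of 9 other feedback regulators 3 were higher and 1 lower, shares near those of all genes. Among them Il17rd, the membrane inhibitor also called Sef, was at 56.6 against 11.5 CPM (2.30, 1.90 to 2.70). Of 18 genes of the RAS-ERK cascade itself 1 was higher and 1 lower, with a median of 0.21.

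The cell cycle and dissociation response lists were followed over the same clusters. All 16 cell cycle genes were higher in the Grp cluster, whose summed cell cycle level was 2052 CPM beside 65.5 to 279 CPM in the other epithelial clusters. The dissociation response genes, immediate early genes such as Fos and Egr1, summed to 2538 CPM in the Grp cluster and to 1102 to 2483 CPM in the other epithelial clusters, and 4 of 15 were higher, a share under that of all genes. In the Dmp1 cluster 9 of 15 were higher, with a sum of 2941 CPM beside 736 to 1857 CPM in the other mesenchymal clusters except the small Dspp cluster (6142 CPM), while 15 of 16 cell cycle genes were lower. In the Lgals3 cluster 0 of 15 dissociation response genes were higher and 15 of 16 cell cycle genes were lower. Their part in the levels of the 9 genes was not tested. In the Tpx2 cluster of dividing mesenchyme (3276 CPM of cell cycle genes), none of the 9 genes was 2-fold higher or lower, except Etv4 with each cell weighted equally (1.07). Of 12059 genes 708 were higher and 1445 lower in that cluster, so few of 9 would be called at those shares. Endothelial markers summed to 25.5 CPM in the Grp and 24.6 CPM in the Dmp1 cluster, with 3 of 8 markers at 0 in each, beside 8525 CPM in endothelial cells. Macrophage markers summed to 35.9 and 14.4 CPM, beside 11657 CPM in the macrophage-like cells.

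Over the 14 clusters, which share 1 library, the correlation of log2(CPM + 5) described how alike the 9 genes were. Spry1 and Etv4 had r = 0.96, Spry4 and Etv4 0.90, Etv4 and Etv5 0.87, and Spry1 and Spry4 0.86. Etv1 was least like Spry4 (0.12) and Spred1 (-0.07) and most like Spry2 (0.62). Of 7943 genes compared, the 3 most like Etv1 were Grp (0.91), Vwa2 and Wfdc2, and the most like Spry1 and also Etv4 was Mpped1 (0.94 and 0.90). Hsd17b12 was among the 3 nearest of both, beside B930036N10Rik for Spry1 and Dcakd for Etv4. Those of Dusp6 were Hddc2, Pcca and Pnn, of Spry4 Zfp326, Tkt and Tcf7, of Spry2 Cdkn2aip, Ngfr and U2af2 and of Etv5 Mios, Ccnt1 and Nudcd1. Spred1 was nearest to Hpcal1 (0.93), Dhrs7b and Svbp, and Spred2 to Khdrbs1 (0.93), Mex3a and Chtf8.

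In mm10 coordinates of GENCODE M21, the 9 genes are protein-coding genes. Spry1 lies on chromosome 3 (37639947 to 37644598), Spry2 on chromosome 14 (105891947 to 105896819), Spred1 on chromosome 2 (117121374 to 117182279) and Spred2 on chromosome 11 (19924375 to 20024026). Dusp6 lies on chromosome 10 (99263231 to 99267489), Etv1 on chromosome 12 (38779380 to 38870484), Etv4 on chromosome 11 (101769742 to 101785371), Etv5 on chromosome 16 (22381309 to 22439719) and Spry4 on chromosome 18 (38586247 to 38601415). Spry1 overlaps the gene Gm42922 and Spry4 the genes Gm27369 and Gm27804 on the other strand. None of these 3 was a row of the matrix.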

How the data were processed

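Droplet single-cell RNA sequencing (10x 3′ v3) of mouse incisor cells was analysed from 1 matrix of deposited UMI counts, which had 31053 genes, 6794880 barcodes and 68931830 UMIs, with software version 3.0.2 per the file headers. The submitters' processing notes name build mm10, Seurat and R 3.4.1. Neither an aligner nor an annotation is given in the sources used. The 2 titles are lanes without a map to barcodes, so the matrix was 1 sample, and 0 sample columns were left unused.

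Barcodes with at least 500 genes and at most 20% mitochondrial UMIs were kept (4775). Scrublet's automatic threshold called 1 doublet, so a score above 0.15 was used (122 barcodes), and 117 barcodes with over 5% haemoglobin UMIs outside erythroid clusters were removed. This left 4536 cells (medians of 5785 UMIs and 1874 genes). Cells were scaled to 10000 UMIs, log transformed and clustered in scanpy 1.11.5 (2000 variable genes, 30 components, 15 neighbours, Leiden resolution 1.0, then 0.5 within each layer), without the 9 genes and the pathway lists. Clusters took a cell type name only from fixed markers, and none where the leading genes or a shared marker left the name in doubt. Cells are not replicates, so summed counts were compared without a test. Ratios have exact conditional binomial intervals, levels exact Poisson intervals and shares Clopper-Pearson intervals. Genes with at least 30 UMIs over both sides were called at 2-fold, and a side with 0 UMIs was set to a floor of 3 counts. In a small cluster this floor can put a gene without a UMI past 2-fold higher, which raises the all-gene shares of higher genes. The ratio script was tested on simulated data.

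The members and lists were chosen with earlier results of these data known. By rule the text names the 9 genes, a fixed set of ligands, receptors and targets, the largest ratios per list, the 3 genes most like each member (at least 300 UMIs) and each cluster's leading genes. GENCODE M21 held 30934 of the identifiers. Promoter sequences are from RefSeq. Alternatives changed the cell filters, resolution, scaling, the UMI minimum and the treatment of dividing cells.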

Additional observations from a re-analysis of the deposited data

How the results depend on the processing

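The count of genes lower in the epithelium was 3. It was 1 with genes above 1% of UMIs left out of the totals and 6 without cells that had Mki67 or Top2a UMIs. The latter setting left out 107 of the 191 cells of the Grp cluster but 5 of the 287 of the Ambn cluster. The cause of either change was not tested, and the share of all genes was not counted without those cells. At a resolution of 2.0 and 1.0, which gave 15 mesenchymal and 8 epithelial clusters, 39 mesenchymal and 55 epithelial pairs of gene and cluster were 2-fold apart, beside 21 of 81 and 32 of 45 in the values reported. There are more pairs to count at that resolution, 135 and 72, and the share over all genes was not counted there. No layer ratio called at 2-fold changed its sign under the 9 alternatives. Over them the log2 ratio of Etv1 ran from 1.95 to 3.13 and that of Spry4 from -4.03 to -1.97, and both stayed past 2-fold under all 9. Spry1 ran from -2.02 to -0.96, Etv4 from -2.39 to -0.79, Etv5 from -1.49 to -0.02 and Dusp6 from -0.23 to 0.87. With a pseudocount of 1 in place of 5, 18 of the 27 most alike genes stayed among the 3 nearest and 25 among the 10 nearest. No paired analysis was possible because the 2 titles are lanes of 1 sample. Leaving out a replicate was not possible for the same reason. The Dspp mesenchymal and Vwde clusters, with 22 and 48 cells, held at most 11 UMIs of each gene, so their levels have wide intervals.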

Other observations

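Outside the dental layers, the 74 endothelial cells had 260 CPM of Dusp6 (215 to 312) and 182 of Spry1 (144 to 226), both above every epithelial and mesenchymal cluster, with 71.8 CPM of Spry2 and 2.24 of Etv4 (1 UMI). Their mean of 1.05 of the 9 genes per thinned cell was close to that of the Grp cluster. A cluster of 76 lymphocytes led by Gzma, Ccl5 and Nkg7 had 412 CPM of Spry2 (320 to 524), from 67 UMIs with at most 8 in a cell, the highest Spry2 level of any cluster. The Cd3-rich lymphocyte cluster beside it had 69.3 CPM of Spry2 (41.7 to 108). In the Gzma cluster Spry1, Spry4, Etv1, Etv4 and Etv5 had no UMI and Dusp6 had 1. The largest macrophage-like cluster, led by Ccl7 and Mrc1, had 143 CPM of Dusp6, 66.7 of Spred1 and 57.1 of Etv5, with 1.45 of Etv4.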
